A study of Mus musculus with 3 samples.

Results

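The chemokine set consisted of 10 named genes: the ligands Ccl2, Ccl7, Ccl3, Ccl4, Cxcl1, Cxcl12, Cxcl14 and Cxcl16, the receptor Ccr1 and the atypical receptor Ackr4. They were taken by name from count tables of single mouse cells that together listed 27886 genes. The table of embryonic stem cells (mESC) listed 3 of the 10, the table of cardiac precursor cell cultures (CPCC) listed 9, and the table of beating cardiac bodies (CB) listed all 10. Each table listed only genes that reached at least 1 count in some cell, so a gene that a table did not list was given no value.

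All cultures were male F1 hybrids of the strains C57BL/6 (the substrain C57BL/6J in the study's methods) and CAST/EiJ and were grown in vitro. The mESC lines came from several blastocysts of this cross and were kept in 2i medium, which holds stem cells in an undifferentiated state. CPCC were derived from these lines by dissociating embryoid bodies and passaging the cells in a medium that favours cardiac precursors. CB were floating aggregates picked because they beat rhythmically, and their cells were labelled as mature cardiac cells. GEO holds 1 sample per culture, so the cells of a culture were not replicates, no difference between cultures was tested, and every interval given below covers counting error only, for reads that are not independent molecules and as if cells were independent draws. Which line a cell came from was not given in the sources used here.

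Chemokines are small secreted proteins that guide the movement of leukocytes and other cells by binding G protein-coupled receptors. Ccl2 and Ccl7 attract monocytes through Ccr2, Ccl3 acts through Ccr1, and Ccl4 is a close relative of Ccl3. Cxcl12, a product of mesenchymal cells in many tissues, holds and guides progenitors and endothelial cells through Cxcr4 and is taken up by Ackr3. Macrophages are well known sources of the inflammatory CC ligands, and embryonic tissue macrophages populate the heart from early in its development.

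The upstream sequences of 4 members are shown. These genes held a match to the patterns described below and differed in the cells that carried their counts. Ccl3 and Ccr1 were counted almost wholly in cells with C1qb. Cells with Col1a2 and without C1qb held 70.8% of the Cxcl12 counts in CPCC and 84.5% in CB. They held 65.3% of the Cxcl1 counts in CB, beside 49.5% of all CB counts. A single cell outside them held 32.9% of the Cxcl1 counts. As given below, Cxcl1 was no longer counted mostly in these cells without CB pool 1, nor was Cxcl12 in CPCC at a higher class limit. The RefSeq promoter sequences used here were matched to 6 of the 10 members (Ccl3, Cxcl1, Cxcl12, Cxcl14, Ccr1 and Ackr4), and those of Cxcl14 and Ackr4 held no match and are not shown. Each line gives the 140 bases before the RefSeq start of the gene on build GRCm38.p6, in the direction of the gene, with motif matches in capitals.
Ccl3: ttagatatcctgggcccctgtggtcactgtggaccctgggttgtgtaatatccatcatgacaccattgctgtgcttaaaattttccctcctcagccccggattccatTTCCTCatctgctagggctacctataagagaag
Ccr1: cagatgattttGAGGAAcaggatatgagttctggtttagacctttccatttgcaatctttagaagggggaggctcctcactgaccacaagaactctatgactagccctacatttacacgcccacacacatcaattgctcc
Cxcl1: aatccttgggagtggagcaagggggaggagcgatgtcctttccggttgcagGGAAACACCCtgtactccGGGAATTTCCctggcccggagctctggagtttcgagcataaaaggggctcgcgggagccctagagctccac
Cxcl12: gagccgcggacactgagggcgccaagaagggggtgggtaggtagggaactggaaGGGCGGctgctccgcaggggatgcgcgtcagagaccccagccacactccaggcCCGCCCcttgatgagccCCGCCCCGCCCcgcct
These stretches lie at chr11:83649379-83649518 on the minus strand for Ccl3, chr9:123968693-123968832 on the minus strand for Ccr1, chr5:90891105-90891244 on the plus strand for Cxcl1 and chr6:117168395-117168534 on the plus strand for Cxcl12. The last 4 bases of the Cxcl1 stretch lie in an exon of the GENCODE annotation, and the other stretches hold no annotated exonic base.

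Capitals mark matches to 3 patterns, which were searched on both strands over 250 bases before each start: GAGGAA, the core bound by the macrophage factor PU.1, GGG and TTTCC parted by 2 bases of any kind, a form of the NF-kB site, and GGGCGG, the GC box. Ccl3 held GAGGAA on the opposite strand at 33 to 28 bases before its start, and Ccr1 held it on its own strand at 129 to 124 bases. Cxcl1 held the NF-kB pattern on its own strand at 71 to 62 bases and on the opposite strand at 89 to 80 bases. Cxcl12 held 5 GC boxes, of which 4 lie in the printed stretch and 2 of those overlap by 1 base. Of 32851 RefSeq promoters, 23.3% held GAGGAA, 1.41% the NF-kB pattern and 32.7% the GC box in a window of this length. The matches are letters in a window, and binding was not measured in these cells.

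There were 215 cells of mESC, 175 of CPCC and 232 of CB, and the median cell held 1528320, 1437410 and 1397870 gene counts in turn. The column names begin with 8 different numbers, 3 in mESC, 2 in CPCC and 3 in CB, and the study's methods describe as many pools of libraries, so each number was read as 1 pool, although no label says so. No column name or library number was shared by the tables, and 0 columns held identical values. CB pool 1 was the shallowest, with a median of 804581 counts per cell. Cells were described by their markers when they held at least 10000 counts, a limit that 8 cells of mESC, 1 of CPCC and 9 of CB missed. Of the remaining 207 mESC, 204 carried at least 50% of the pluripotent markers at 10 CPM or more, where CPM is the count of a gene per 1000000 gene counts of the same cell or group. By the same measure 92 of 174 CPCC cells still carried the pluripotent list and 0 the cardiomyocyte list (Tnnt2, Myh6, Myh7, Actc1, Nppa and Tnni3), and 5 of 223 CB cells carried the cardiomyocyte list, whereas 106 carried the stromal list and 82 the epithelial list. The cardiomyocyte list was therefore carried by few of the cells counted here. The study also assigned CB cells to cardiac fibroblasts, endocardium and pericardial cells, so this list alone cannot decide the label of mature cardiac cells.

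To locate the source of the chemokine counts, cells were divided at 100 CPM of C1qb, a complement gene of tissue macrophages, and at 100 CPM of Col1a2, a collagen gene of stromal cells. In CPCC 19 cells passed the C1qb limit, 32 the Col1a2 limit and 0 both, and 123 passed neither. In CB 1 cell passed only the C1qb limit, 4 passed both, 109 passed only the Col1a2 limit and 109 passed neither. No mESC cell passed either limit. The classes are ranges of 1 gene and not cell types: 2 CPCC cells lay from 50% of the C1qb limit up to the limit itself and 1 lay above it by less than a factor of 2, and 3 and 6 CPCC cells lay in the same ranges of Col1a2. In CB these ranges held 0 and 1 cells for C1qb and 7 and 8 for Col1a2.

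The C1qb cells of CPCC carried the macrophage list as a whole. C1qb is on this list of 13 markers and its level was set by the limit, so the other 12 are given without it. They summed to 16320 CPM against 15.5 CPM in Col1a2 cells and 26.6 CPM in the remaining cells, and 17 of the 19 cells carried all or all but 1 of the 12 at 10 CPM or more. The genes that led this class beside C1qb included Lyz2, C1qa, C1qc, Fcer1g and Tyrobp, and the class is called macrophage-like below. The other two cells of the class carried 3 and 2 of the 13 markers, and 3 cells of the class also carried at least 50% of the pluripotent list. The 10 stromal markers summed to 38.9 CPM in the class, with Dcn, Lum, Pdgfra and Mfap4 at 0 and 1 marker above 10 CPM, and 1 of the 19 cells carried 5 of the 10. All 19 came from pool 2, which also held 23 of the Col1a2 cells and 53 of the cells past neither limit. The class comparisons below also draw on 9 Col1a2 cells and 70 remaining cells of pool 1. Class and pool therefore cannot be fully told apart in CPCC. Levels are given below for each pool, but class shares within pool 2 only as a range.

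The Col1a2 cells were of a different make-up in each culture. In CPCC 31 of 32 carried at least 50% of the smooth muscle list (Acta2, Tagln, Cnn1, Myh11 and Actg2) and 22 carried at least 50% of the stromal list, whereas in CB 98 of 109 carried the stromal list and 24 the smooth muscle list. Col1a2, whose level was set by the limit, is on the stromal list, and without it 14 of the 32 CPCC cells and 94 of the 109 CB cells carried at least 50% of the other 9 markers. The CPCC class came from both pools, 9 cells from pool 1 and 23 from pool 2. Macrophage markers without C1qb summed to 44.0 CPM in the CB Col1a2 cells and to 8277 CPM in the 4 CB cells past both limits. The study's methods state that the number and condition of the cells in each chamber were recorded under a microscope and that libraries were made from cells of high quality. This record is not in the tables and no doublets were removed here, and the part of doublets in the cells past both limits was not tested. The CB classes were spread unevenly over the pools, as pool 2 held 63 of the 109 cells past neither limit, 13 of the 109 Col1a2 cells and 0 of the 5 past the C1qb limit. In pool 2 none of Ccl2, Ccl7, Ccl3, Ccl4, Cxcl1, Cxcl14 and Ccr1 had a count, so class and pool cannot be fully told apart in CB.

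The 3 members listed in every table were Cxcl14, Cxcl16 and Ackr4, and their summed level in CPM was 4.29 for mESC, 52.8 for CPCC and 33.5 for CB. Over all members that a table listed, 9 in CPCC and 10 in CB, the sum was 597 CPM for CPCC and 415 for CB. At 10 CPM or more, 31 of 207 mESC carried exactly 1 member, 97 of 174 CPCC cells carried at least 1 and 4 carried 7 of them, and 124 of 223 CB cells carried at least 1. In such sums fewer expressing cells and less RNA per cell cannot be told apart, so shares of cells are given beside the levels.

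**Figure D1:**
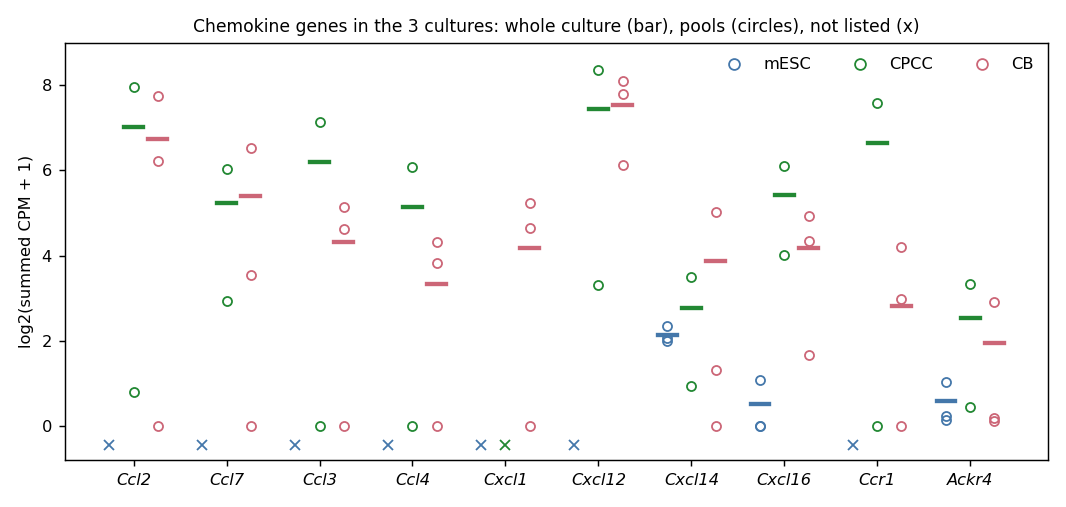
Level of each of the 10 chemokine genes in mESC, CPCC and CB as log2(summed CPM + 1), with a bar for the whole culture, an open circle for each pool and a cross where a table does not list the gene. For Ccl2, Ccl7, Ccl3, Ccl4 and Ccr1 1 of the 3 CB circles lies at 0, and for Ccl3, Ccl4 and Ccr1 1 of the 2 CPCC circles does, while every circle of Cxcl12 lies above 0. Values are not per length, so genes are not compared with each other.

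Across cultures, the change in level was measured as the log2 ratio of CPM + 1, which understates the change of low genes, and a ratio of at least 4-fold was counted. In CPCC against mESC, 1 of the 3 members listed in both tables was at least 4-fold higher, beside 5.21% of 20272 genes, and 0 were at least 4-fold lower, beside 1.04%. In CB against mESC, 1 of 3 was higher, beside 10.8% of 19855 genes, and 0 were lower, beside 3.04%. In CB against CPCC, 0 of 9 were higher, beside 4.74% of 20995 genes, and 1, Ccr1, was lower, beside 2.0%, which became 3 under TMM scaling and 2 under DESeq2 size factors. The median log2 ratio of all genes was -0.02, 0.13 and 0.14 in these comparisons, against 1.97, 1.75 and -0.60 over the members. The first 2 comparisons share the mESC sample. The members that were not listed in mESC, which include every CC ligand of the set, could not enter a ratio against it.

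Within CPCC, 7 of 9 members had over 50% of their counts in the macrophage-like cells, beside 5.49% of 17735 genes with at least 100 counts, although these 19 cells held 14.3% of all counts. Only Cxcl12 of the 9 had over 50% in Col1a2 cells, beside 4.98% of genes, in a class that held 18.3% of all counts. This count of 1 was 0 with a class limit of 1000 CPM, where Cxcl12 had 31.3%, and 3 without pool 2. Within CB, 5 of 10 members had over 50% of their counts in the 5 cells past the C1qb limit, beside 0.905% of 19666 genes, in cells that held 1.95% of all counts. The other 5 had over 50% in Col1a2 cells without C1qb, beside 41.2% of genes, in a class that held 49.5% of all counts. The 5 members of the C1qb group in CB were Ccl2, Ccl7, Ccl3, Ccl4 and Ccr1, and all of these also belonged to the macrophage-like group in CPCC. The 5 of the Col1a2 group were 3 without pool 1 and 3 without pool 3, and the 5 of the C1qb group were 3 without the top cell of each member. Among the cells of CPCC pool 2 alone, the same count of 7 members had over 50% of their counts in macrophage-like cells, from 65.3% for Cxcl16 to 99.9% for Ccl4. All of these cells lay in this pool, so they held a larger part of its counts than the 14.3% of the whole culture. The share over all genes was not computed within pool 2.

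**Figure D2:**
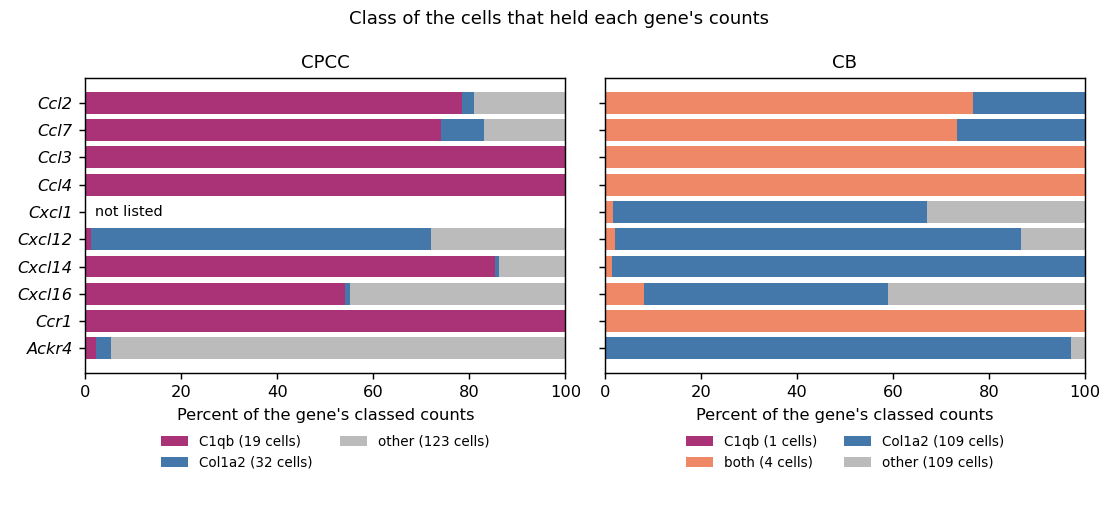
Percent of the counts of each member that lie in C1qb, Col1a2, double and remaining cells of CPCC and CB, as stacked bars. In CPCC the bars of Ccl3, Ccl4 and Ccr1 are filled to over 99% by macrophage-like cells and that of Cxcl12 to 70.8% by Col1a2 cells, while in CB Cxcl14 and Ackr4 lie to over 96% in Col1a2 cells.

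Ccl3 and Ccl4 lie side by side on chromosome 11, at chr11:83647844-83649355 on the minus strand and chr11:83662584-83664683 on the plus strand, 13229 bases apart on GRCm38. Both encode inflammatory ligands that macrophages release. Ccl3 stood at 72.1 CPM in CPCC, namely 0 for pool 1 and 140 for pool 2, and at 19.0 CPM in CB, with 23.6, 0 and 34.5 CPM in pools 1 to 3. The pools without a count allow at most 0.0225 CPM in CPCC pool 1 and 0.0227 CPM in CB pool 2.

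Ccl3 was detected in 17 of 19 macrophage-like CPCC cells, 2 of 32 Col1a2 cells and 3 of 123 remaining cells. Its level was 505 CPM in the macrophage-like cells (95% interval 498 to 512), and the other 2 classes held 3 and 26 counts in all. In CB it was counted in 2 of 232 cells, at 3142 and 1843 CPM, and both of them passed the C1qb and the Col1a2 limit and carried all 13 macrophage markers. The 0 of 109 Col1a2 cells allow a share of cells with a Ccl3 count of up to 2.75%, by the limit of 3 that is used here for a count of 0. Of the 22 CPCC cells with a Ccl3 count, the 17 macrophage-like cells each carried at least 12 of the 13 macrophage markers.

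Ccl4 followed the same distribution at a lower detection. It stood at 34.5 CPM in CPCC (0 and 66.8 CPM in the 2 pools) and 9.10 CPM in CB (19.0, 0 and 13.2 CPM). It was detected in 11 of 19 macrophage-like cells at 242 CPM, and 2 of 32 Col1a2 cells and 2 of 123 remaining cells held 2 and 3 counts. In CB its 3078 counts lay in the same 2 cells that held Ccl3. At 10 CPM or more, all 10 CPCC cells with Ccl4 also carried Ccl3, out of 16 with Ccl3. A single cell held 43.6% of the CPCC counts of Ccl4 and 41.3% of those of Ccl3.

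On the log2 scale the ratio of CB to CPCC was -1.87 for Ccl3 and -1.81 for Ccl4, short of 4-fold. Ccl3 passed 4-fold under TMM scaling, at -2.06, and under DESeq2 size factors, at -2.06, and Ccl4 was at the limit, at -2.0 and -1.99. Between single pools it ranged from -7.14 to 5.15 for Ccl3 and from -6.08 to 4.32 for Ccl4, so the sign depended on the pools compared.

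Ccl2 and Ccl7 form the second pair on chromosome 11, at chr11:82035571-82037453 and chr11:82045712-82047525, both on the plus strand and 8259 bases apart. They encode the monocyte attractants. Ccl2 stood at 128 CPM in CPCC, namely 0.742 CPM for pool 1 and 247 CPM for pool 2, and at 105 CPM in CB, with 73.6, 0 and 215 CPM. Ccl7 stood at 36.4 CPM in CPCC (6.62 and 64.3 CPM) and 41.0 CPM in CB (10.7, 0 and 91.7 CPM). The log2 ratio of CB to CPCC was -0.29 for Ccl2 and 0.16 for Ccl7, with pool pairs on both sides of 0 for each, and the ratio of Ccl7 was -0.03 under TMM scaling.

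A larger part of the Ccl2 counts than of the Ccl3 counts lay outside the macrophage-like cells. In CPCC it was detected in 16 of 19 macrophage-like cells at 704 CPM, in 17 of 32 Col1a2 cells at 17.6 CPM and in 10 of 123 remaining cells at 36.1 CPM. These classes held 78.5%, 2.51% and 19.0% of its counts. Most of the last share came from 1 cell with 4543 Ccl2 counts, equal to 4356 CPM, which carried 6 of 6 endothelial markers (Pecam1, Cdh5, Kdr, Tek, Emcn and Egfl7). The median depths of the 3 classes were 1852810, 1548770 and 1344040 counts. At a depth thinned to 430000 counts per cell, which left out 18 CPCC cells, 23.6% of cells held Ccl2, against 24.6% at full depth.

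In CB, 1 cell of pool 3 held 26805 Ccl2 counts, 75.6% of all, and 9759 Ccl7 counts, 70.4% of all. It stood at 9965 CPM of Ccl2 and 3628 CPM of Ccl7 and carried all 13 macrophage and 8 of 10 stromal markers. Without it the cells past the C1qb limit held 4.32% of the Ccl2 counts and 9.57% of the Ccl7 counts, instead of 76.6% and 73.3%. The 109 Col1a2 cells held 18 cells with Ccl2 at 49.5 CPM and 11 with Ccl7 at 22.1 CPM, whereas the 109 cells past neither limit held 2 counts of each gene. In CB the detected cells were therefore mostly Col1a2 cells for both genes, and the counts mostly those of a single cell.

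Ccl7 was detected in 10 of 19 macrophage-like cells of CPCC at 189 CPM, in 9 of 32 Col1a2 cells at 18.0 CPM and in 4 of 123 remaining cells at 9.18 CPM. Its counts divided as 74.0%, 9.0% and 17.0%. At 10 CPM or more, each of the 10 macrophage-like cells with Ccl7 also carried Ccl2, which 14 of the 19 cells carried. Over all classed CPCC cells 19 of the 23 cells with Ccl7 carried Ccl2, and in CB 6 of 13 did.

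**Figure D3:**
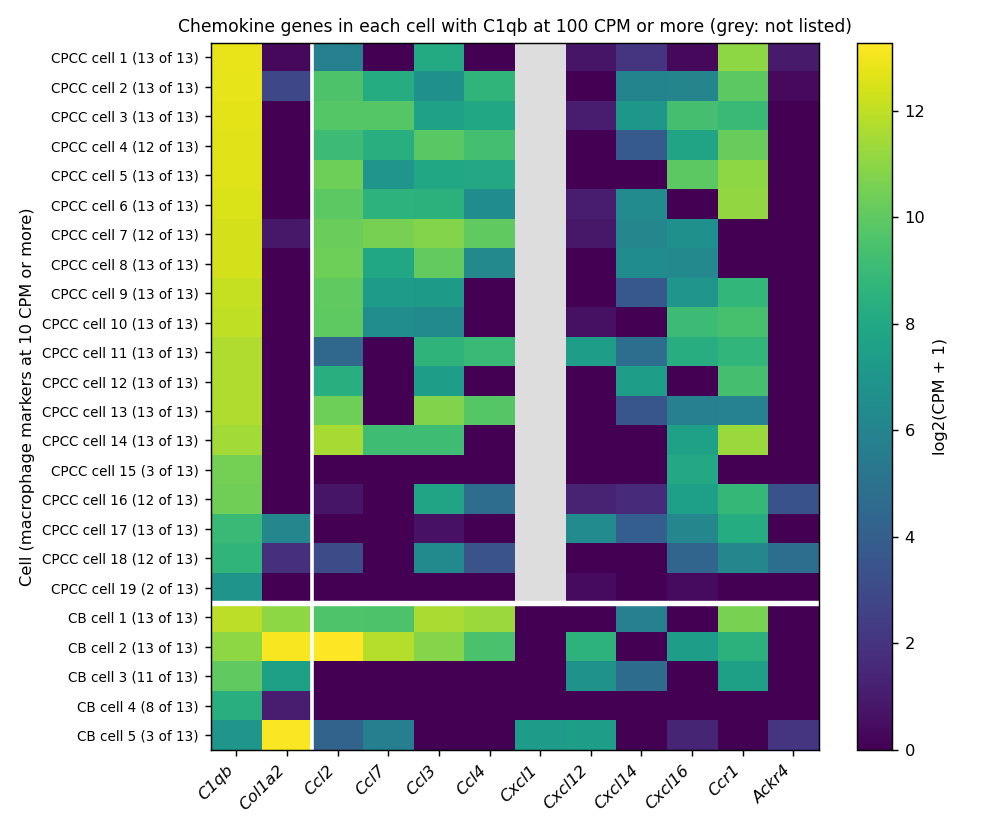
Level of C1qb, Col1a2 and the 10 members (columns) in each cell past the C1qb limit (rows, 19 in CPCC above and 5 in CB below), ordered by C1qb and coloured by log2(CPM + 1), with grey where the table does not list the gene. Most CPCC cells high in C1qb carry Ccl2, Ccl3 and Ccr1 together, Cxcl12 and Ackr4 are near 0 in most of the CPCC cells, and only 2 of the 5 CB cells carry Ccl3 and Ccl4.

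The individual macrophage-like cells did not all carry the same set. At 10 CPM or more, Ccl3 was found in 16 of the 19, Cxcl16 and Ccr1 in 15 each, Ccl2 in 14, Cxcl14 in 11, and Ccl7 and Ccl4 in 10 each, but Cxcl12 in only 2 and Ackr4 in 1. The cell with the most C1qb, at 7222 CPM, held 274 CPM of Ccl3 and 2053 CPM of Ccr1 with no Ccl7 or Ccl4. The pair of cells with 3 and 2 macrophage markers held no count of Ccl2, Ccl7, Ccl3, Ccl4 or Ccr1, and 1 of them held Cxcl16 at 259 CPM.

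Ccr1, the receptor of Ccl3 and of Ccl7, lies at chr9:123962124-123968692 on the minus strand. It stood at 98.9 CPM in CPCC, with 0 and 191 CPM in the pools, and 6.09 CPM in CB, with 17.3, 0 and 6.83 CPM. It was at least 4-fold lower in CB than in CPCC by CPM, TMM and DESeq2 scaling, with a log2 ratio of -3.82 by CPM that ranged from -7.59 to 4.19 over pool pairs. Ccr1 was detected in 15 of 19 macrophage-like cells at 692 CPM (95% interval 684 to 701), while 2 of 32 Col1a2 cells and 6 of 123 remaining cells held 2 and 13 counts. In CB 3 cells held all 2059 counts, at 1576, 365 and 188 CPM, and each passed both the C1qb and the Col1a2 limit. By the same limit, the 0 of 109 Col1a2 cells allow a share of cells with a Ccr1 count of up to 2.75%. Of the 16 CPCC cells with Ccl3 at 10 CPM or more, 14 also carried Ccr1, so ligand and receptor were counted in the same cells.

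**Figure D4:**
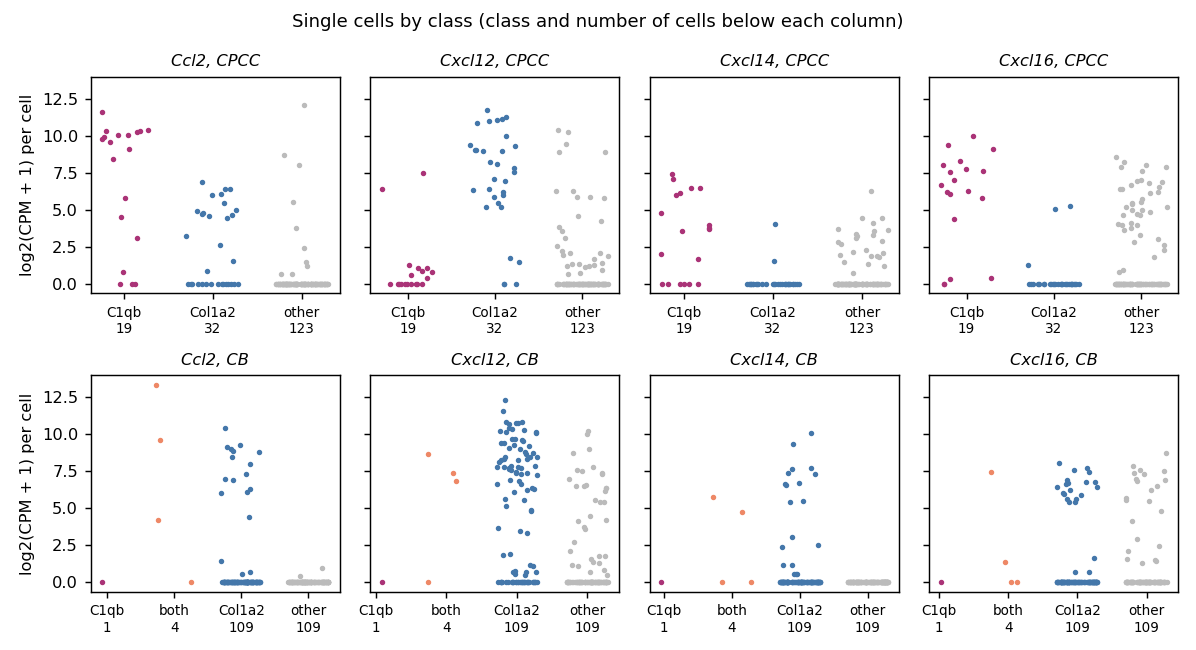
Level of Ccl2, Cxcl12, Cxcl14 and Cxcl16 in single cells of CPCC (upper panels) and CB (lower panels) as log2(CPM + 1), where each point is 1 cell and the columns are the classes with their numbers of cells. In CPCC most points of Ccl2 that lie high are in the C1qb column and those of Cxcl12 in the Col1a2 column, 2 of the 19 C1qb cells reach 10 CPM of Cxcl12, and in CB no cell past neither limit has a count of Cxcl14.

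Cxcl12, the Cxcr4 ligand of mesenchymal cells, lies at chr6:117168535-117181367 on the plus strand and had the opposite distribution. It stood at 174 CPM in CPCC, with 8.94 and 328 CPM in the pools, and 184 CPM in CB, with 220, 69.3 and 274 CPM. It was the most widely detected member in both cultures, in 71 of 175 CPCC cells (40.6%, Clopper-Pearson 95% interval 33.2% to 48.2%) and 117 of 232 CB cells (50.4%, 43.8% to 57.0%). The CPCC share was 19.0% in pool 1 and 58.3% in pool 2, both outside the interval of the whole culture, and the CB shares were 52.2%, 46.2% and 52.9%. In CB pool 2, Cxcl16 at 2.18 CPM was the only other ligand of the set with a count. The log2 ratio of CB to CPCC was 0.08, and -0.12 under TMM scaling.

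In CPCC 29 of 32 Col1a2 cells held Cxcl12, at 673 CPM, against 32 of 123 remaining cells at 72.2 CPM and 9 of 19 macrophage-like cells at 14.5 CPM. These classes held 70.8%, 28.0% and 1.19% of its counts. The 58 cells that carried at least 50% of the smooth muscle list, which include most Col1a2 cells, held 92.9% of the counts. In CB 75 of 109 Col1a2 cells held it at 314 CPM, 36 of 109 remaining cells at 50.6 CPM and 3 of the 4 cells past both limits at 243 CPM. The CB classes differed little in median depth, at 1571270 counts for Col1a2 cells and 1482860 for cells past neither limit. The cell with the most Cxcl12 held 16.9% of the CPCC counts and 10.8% of the CB counts, a smaller part than for the CC ligands.

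Cxcl12 and Ccl2 were counted together in the Col1a2 cells of CPCC: of the 32 Col1a2 cells, 27 carried Cxcl12 and 13 Ccl2 at 10 CPM or more, and all 13 also carried Cxcl12. In CB 63 of 109 Col1a2 cells carried Cxcl12 and 15 carried Ccl2, with 9 carrying both.

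Cxcl1, a neutrophil attractant that acts through Cxcr2, lies at chr5:90891241-90893115 on the plus strand and was listed only in the CB table. It stood at 17.1 CPM, with 36.9, 0 and 24.2 CPM in pools 1 to 3, and was detected in 20 of 232 cells (8.62%). Of these, 17 were Col1a2 cells, at 22.5 CPM over the class and with 65.3% of the counts. A single cell of pool 3 past neither limit held 1901 counts, 32.9% of all, and carried 6 of 6 epithelial markers. Without pool 1 the Col1a2 cells held 45.3% of the counts. Of the 15 Col1a2 cells with Cxcl1 at 10 CPM or more, 9 also carried Cxcl12.

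Cxcl14, a ligand of epithelial and stromal cells, lies at chr13:56288643-56296551 on the minus strand and was the member most often detected in mESC. There it stood at 3.37 CPM, with 3.18, 2.97 and 4.09 CPM in the 3 pools, and was found in 73 of 215 cells (34.0%, 27.7% to 40.7%), none with more than 148 counts. It stood at 5.79 CPM in CPCC (0.907 and 10.4 CPM) and 13.7 CPM in CB (1.49, 0 and 31.6 CPM). No ratio between cultures reached 4-fold, at 0.64 for CPCC against mESC, 1.75 for CB against mESC and 1.12 for CB against CPCC on the log2 scale, and pool pairs lay on both sides of 0 in each comparison.

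In CPCC 13 of 19 macrophage-like cells held it at 34.6 CPM, against 2 of 32 Col1a2 cells at 0.298 CPM and 25 of 123 remaining cells at 1.19 CPM, and the macrophage-like cells held 85.2% of its counts. In CB 19 of 109 Col1a2 cells held it at 27.3 CPM, with 98.5% of the counts, while 2 of the 4 cells past both limits held it at 12.5 CPM and 0 of 109 cells past neither limit did. Outside pool 2, where no cell held Cxcl14, it was found in 19 of 96 Col1a2 cells and 0 of 46 cells past neither limit, which allows a share of up to 6.52%. A single CB cell with 10 of 10 stromal markers held 39.2% of the counts, and without its pool the Col1a2 cells held 24.7% and the cells past the C1qb limit 75.3%. In CB 11 Col1a2 cells carried Cxcl14 at 10 CPM or more, 6 of them with Cxcl12 and 0 with Ccl2.

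Cxcl16, a ligand of Cxcr6 that is made as a membrane protein, lies at chr11:70453983-70459984 on the minus strand. It was the only member listed in all tables that was at least 4-fold higher in both derived cultures than in mESC. It stood at 0.436 CPM in mESC (0, 1.11 and 0 CPM), 42.2 CPM in CPCC (15.1 and 67.5 CPM) and 17.0 CPM in CB (19.2, 2.18 and 29.5 CPM). The log2 ratio to mESC was 4.91 in CPCC, with pool pairs from 2.93 to 6.10, and 3.64 in CB, with pool pairs from 0.59 to 4.93, so each of the 6 and of the 9 pool pairs was above 0. With a pseudocount of 10 CPM the ratio in CB was 1.37, short of 4-fold. It was found in 4 of 215 mESC (1.86%, 0.509% to 4.69%), 62 of 175 CPCC cells (35.4%, 28.4% to 43.0%) and 47 of 232 CB cells (20.3%, 15.3% to 26.0%). The pools varied more than these intervals, from 24.1% to 44.8% of cells in CPCC and from 5.13% to 29.0% in CB.

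Of the ligands, Cxcl16 had the smallest percent of counts in its leading class in both cultures. In CPCC 17 of 19 macrophage-like cells held it at 159 CPM and 42 of 123 remaining cells at 28.0 CPM, with 54.0% and 44.9% of the counts, while 3 of 32 Col1a2 cells held it at 2.64 CPM. Without the cell that held most, the macrophage-like cells held 48.7%. In CB 22 of 109 Col1a2 cells and 23 of 109 remaining cells held it, at 17.5 and 14.3 CPM, and 2 of the 4 cells past both limits held it at 83.0 CPM. The 51.0% of counts in Col1a2 cells was 48.6% without pool 1 and 48.3% without pool 3. Cxcl16 shares 552 exonic bases, 18.3% of its length, with Zmynd15 on the opposite strand, and the library kits do not keep the strand, so reads of this pair in the shared bases cannot be told apart.

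Ackr4, an atypical receptor that removes Ccl19, Ccl21 and Ccl25 without signalling for migration, lies at chr9:104084157-104126933 on the minus strand. It was the lowest member in each derived culture per length, at 0.0909 CPM per kb in mESC, 0.898 in CPCC and 0.529 in CB. On the scale of CPM it stood at 0.489 in mESC (0.170, 1.04 and 0.104), 4.83 in CPCC (0.367 and 9.02) and 2.85 in CB (0.0837, 0.136 and 6.53). The log2 ratio to mESC was 1.97 in CPCC and 1.37 in CB, with pool pairs on both sides of 0. In CPCC 23 of 123 cells past neither limit held Ackr4, with 94.6% of the counts, and cells carrying at least 50% of the pluripotent list held 94.5%, while those carrying the epithelial list, which 152 of 207 mESC also carried, held 98.0%. In CB the Col1a2 cells held 97%, of which 2 cells accounted for 38.5% and 31.6% of all counts, and both lay in pool 3, without which the share was 13.9%. Ackr4 shares 479 exonic bases, 8.90%, with Acad11 on the opposite strand, and 11 of its 17 mESC values above 0 were not whole numbers, so its low values are uncertain.

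Per kb of exonic length, the highest members in CPCC were Ccl2 at 113, Ccl3 at 94.2, Ccl4 at 52.3 and Ccl7 at 45.5 CPM per kb, followed by Ccr1 at 34.9, Cxcl12 at 21.2, Cxcl16 at 14.0, Cxcl14 at 3.17 and Ackr4 at 0.898. In CB the order began with Ccl2 at 92.2 and Ccl7 at 51.1 CPM per kb, then Ccl3 at 24.8, Cxcl12 at 22.5, Ccl4 at 13.8, Cxcl1 at 9.10, Cxcl14 at 7.52, Cxcl16 at 5.61, Ccr1 at 2.15 and Ackr4 at 0.529. In mESC Cxcl14 at 1.84 stood above Cxcl16 at 0.144 and Ackr4 at 0.0909. In CPCC and CB the ranges over pools overlapped for each pair of neighbours in this order, with Ccl2 in CPCC reaching from 0.652 to 217 CPM per kb. In mESC the pools of Cxcl14, at 1.63 to 2.24, lay above those of Cxcl16, at 0 to 0.369, which overlapped those of Ackr4.

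The receptors through which other members act differed in how widely they were detected. Ccr2, the main receptor of Ccl2 and Ccl7, was listed only in CB and had 90 counts in 1 cell, and Ccr3 was listed in no table. Cxcr4 went from 0.108 CPM in mESC through 1.13 in CPCC to 8.03 in CB, where it was found in 32 of 232 cells. A single cell held 49.3% of its CB counts and 86.8% of its mESC counts, and without these cells the levels were 4.11 and 0.0143 CPM. Ackr3, which takes up Cxcl12, stood at 17.1, 11.6 and 72.3 CPM in mESC, CPCC and CB. The CB Col1a2 cells held 60.9% of its counts there, in a class that held 49.5% of all counts. It was found in 52 of these 109 cells and in 45 of the 109 cells past neither limit.

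Cxcr6, the receptor of Cxcl16, was found in 7 CPCC and 5 CB cells, at 3.46 and 2.59 CPM, or 1.92 and 0.587 CPM without the cell with the most counts. Cxcr2, the receptor of Cxcl1, was found in 185 of 215 mESC, 117 of 175 CPCC cells and 28 of 232 CB cells, at 6.05, 3.04 and 0.411 CPM, with a median of 6, 5 and 1.5 counts in the cells that held any. Ccr7 was found in 2 mESC and 5 CPCC cells, and Ccr9 in 3 CPCC cells and 1 CB cell.

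Several other chemokine genes were also counted mainly in the macrophage-like cells. The tables listed 14, 31 and 35 of 41 further chemokine ligand and receptor genes in mESC, CPCC and CB. In CPCC 9 of the 23 with at least 100 counts had over 50% of them in macrophage-like cells, beside 5.49% of all genes, with Ccl12 at 99.9% and Cx3cr1, the fractalkine receptor of tissue macrophages, at 99.9%. In CB 8 of 26 had over 50% in the 5 cells past the C1qb limit, beside 0.905% of all genes, with Ccl12 at 99.8%. Of these cells 4 also passed the Col1a2 limit, and 1 cell held 9765 of the 11805 Ccl12 counts of those 4. The count of 8 was not recomputed without the top cell of each gene. The levels were 39.8 CPM for Ccl12 and 121 CPM for Cx3cr1 in CPCC, and 35.0 and 5.38 CPM in CB. Over 50% in Col1a2 cells was found for 5 of 23 genes in CPCC, beside 4.98% of all genes, and for 8 of 26 in CB, beside 41.2%.

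Ccl25 and Ccl27a were spread more widely over the classes. Over whole cultures, Ccl25 was detected in 97, 99 and 61 cells of mESC, CPCC and CB at 13.7, 19.0 and 17.3 CPM, and Ccl27a in 75, 91 and 67 cells at 2.60, 4.38 and 5.81 CPM. Cells past neither limit held 71.3% of the CPCC counts and 56.6% of the CB counts of Ccl25, and 87.5% and 43.9% of those of Ccl27a. Ccl9 stood at 9.27, 43.0 and 1.18 CPM in mESC, CPCC and CB, with 77.7% of its CPCC counts in macrophage-like cells. Cx3cl1, the ligand of Cx3cr1, stood at 0.137, 13.8 and 14.3 CPM, and Ccl17 was found in 28 CPCC and 11 CB cells. Of the further chemokine genes listed in both tables, 4 of 13 were at least 4-fold higher in CPCC than in mESC, beside 5.21% of all genes, and 0 were lower, beside 1.04%. In CB against mESC 6 of 11 were higher, beside 10.8%, and 2 lower, beside 3.04%, and in CB against CPCC 5 of 26 were higher, beside 4.74%, and 3 lower, beside 2.0%.

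**Figure D5:**
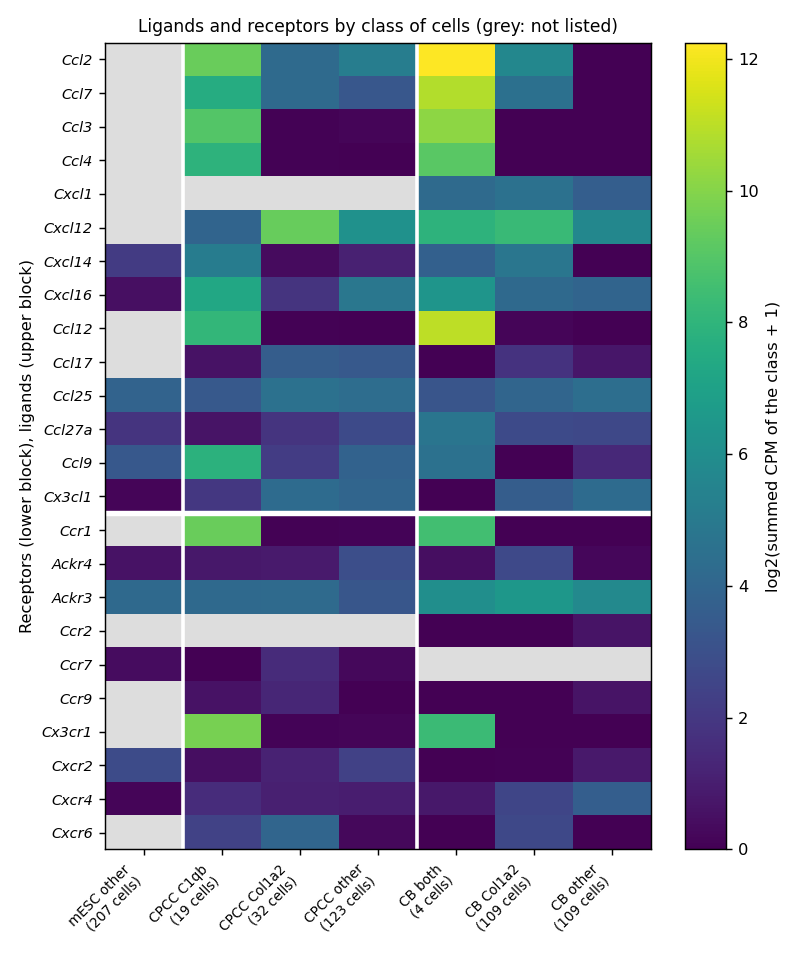
Level of the members and of further chemokine genes (rows, ligands above and receptors below) in classes of mESC, CPCC and CB cells (columns), coloured by log2(summed CPM of the class + 1), with grey where the table does not list the gene. Ccl12 and Cx3cr1 are high in the C1qb column of CPCC and in the CB column of cells past both limits, as Ccl3, Ccl4 and Ccr1 are, and Cxcl12 is highest in the Col1a2 column of both cultures. Values are not per length, so rows are not compared with each other.

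A list of 25 inflammatory genes gave the setting of these ligands. Of the 17 listed in both tables, 8 were at least 4-fold higher in CPCC than in mESC, beside 5.21% of all genes, and 0 were lower, beside 1.04%. In CB against mESC 8 of 17 were higher, beside 10.8%, and 1 was lower, beside 3.04%, while in CB against CPCC 2 of 23 were higher, beside 4.74%, and 2 lower, beside 2.0%. In CPCC 9 of 25 had over 50% of their counts in macrophage-like cells, beside 5.49% of all genes, among them the cytokine genes Tnf, Il1a and Il1b and the lipopolysaccharide receptor genes Cd14 and Tlr4. Of other cytokine genes of the list, Il6 had 78.5% of its CPCC counts in Col1a2 cells and Il10 all 226 in cells past neither limit. A single cell held 87.1% of the CPCC counts of Il1b, 65.9% of those of Tlr4 and 73.2% of those of Il6. Il1a was found in 3 of the 19 macrophage-like cells. In CB 2 of 22 had over 50% in cells past the C1qb limit, Cd14 and Tnf, beside 0.905%. There 15 of 22 had over 50% in Col1a2 cells, beside 41.2%.

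The genes of the list with the most CPM are given per kb of exonic length, the scale on which genes can be compared. In mESC they were Mif at 694, Sod2 at 48.9, Nfkbia at 40.4, Icam1 at 19.5 and Relb at 8.67 CPM per kb. In CPCC they were Mif at 622, Ier3 at 51.6, Nfkbia at 48.8, Sod2 at 20.2 and Vcam1 at 11.7 CPM per kb, and 1 cell held 63.7% of the Vcam1 counts. In CB Mif stood at 527, Ier3 at 184, Cebpb at 98.3, Nfkbia at 96.8 and Zfp36 at 90.5 CPM per kb. Per length Cd14, at 32.2, and Cebpb, at 24.2, stood above Sod2 and Vcam1 in CPCC, and Ier3, at 9.98, stood above Relb in mESC.

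The genes most like each member over single cells were ranked by Spearman's rho of log2(CPM + 1), for members found in at least 10% of the cells of a culture. Cells share library and depth effects, so rho is a description. In 174 CPCC cells Ccl3 was closest to Lyz1 (rho 0.91), Gm49339 and Vav1, and Ccr1 to Cd300c2 (0.77), Cd33 and Fcgr2b. Of these, Lyz1, Vav1, Cd33 and Fcgr2b are known from blood and myeloid cells. Ccl2 was closest to Lilrb4a (0.65), with Fxyd5 also among its nearest, and Ccl7 to Ccl2 (0.64), with Apbb1ip also among its nearest. Cxcl12 was closest to Synpo (0.70), Rbms3 and Col3a1 in CPCC and to Mfap4 (0.53), Pdgfra and Col3a1 in 223 CB cells. With Pearson's r in place of rho, 0 of the 3 nearest genes of Ccl3, 1 of those of Ccl2 and of Ccr1, 3 of those of Ccl7 and 2 of those of Cxcl12 in each culture were the same. Which genes were nearest to Ccl3, Ccl2 and Ccr1 therefore rested on the measure used. By Pearson's r Ccl3 was closest to Lilr4b, Cd300c2 and C1qa, and Ccr1 to Trem2, Lilr4b and Cd300c2.

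Weaker values were found for the remaining members. In CPCC Cxcl14 was closest to Cd52 (0.52), Cd300lf and Lilr4b, Cxcl16 to Vav1 (0.45), Gm49339 and Tlr13, and Ackr4 to Lgi2 (0.44), Acad11 and Satb1, where Acad11 is the gene whose exons Ackr4 overlaps. In CB Ccl2 was closest to Lgals9 (0.35), Gm7676 and Col3a1, and Cxcl16 to Upk1b (0.37), Psmb8 and Gm7665. In 207 mESC Cxcl14 was closest to Cbwd1 (0.32), Sema5a and Rcn2. In sparse counts values of this size, that of Cxcl12 in CB included, were not read as a relation.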

How the data were processed

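Single cells were captured on the Fluidigm C1 system and sequenced without molecular identifiers. Libraries were made with SMART-Seq and Nextera XT kits, which do not keep the strand. The authors aligned reads to mm10 with STAR 2.7 (submitters' processing notes), obtained gene counts in Partek Flow (study's methods) and deposited 1 table of unscaled values per culture. The CPCC table held whole counts, as deposited; the deposited mESC and CB tables held estimated counts, as 26.4% and 27.4% of their positive values lay over 0.001 from a whole number. The counting model was not given in the sources used here, and levels were set across tables that were counted or rounded in different ways. In CPCC, 208 rows without a gene name, 23 date-like names (together 0.139% of counts) and 2 columns of no known sample were left out.

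Counts were summed per culture, pool and class, and divided by summed gene counts to give CPM. With 1 sample per group no test was run. Counts were rounded for thinning and for scaling factors. Shares have exact Clopper-Pearson and sums exact Poisson 95% intervals, and a count of 0 was given a limit of 3 counts. Named were all members, their receptors, other chemokine genes found in at least 10% of cells, the 5 highest inflammatory genes per culture, the 3 genes most like each member, and marker genes. The members, lists and limits were chosen with earlier results of these data known. The full counts of genes past a limit also name Cd14, Tlr4, Tnf, Il1a and Il1b, and the cytokine genes Il6 and Il10 are given beside them. A few genes that this rule names are not reported here. Gene positions come from GENCODE M21, and sequences from RefSeq. Alternatives were other scaling (edgeR 4.0.16 TMM, DESeq2 1.42.0 size factors, in R 4.3.3), filters, pseudocounts, folds, class limits, single pools, and leaving out each member's top cell. Scripts used Python 3.11.15, numpy 2.4.6, pandas 2.3.3 and scipy 1.17.1, and were tested on simulated data.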

Additional observations from a re-analysis of the deposited data

How the results depend on the processing

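Of 120 recomputed log2 ratios 105 stayed on their side of the fold limit, 14 moved past it and 1, Cxcl16 in CB with a pseudocount of 10, fell short of it. Signs changed for 2 ratios near 0, those of Ccl7 and Cxcl12 in CB against CPCC, under TMM or DESeq2 scaling. Counts of members did change. For CPCC against mESC, 1 member was at least 4-fold higher, and 2 were under TMM scaling, with the same weight per cell, with a pseudocount of 0.1, and at 2-fold, with 2 also in the highest pool pair. For CB against mESC the count of 1 became 2 with a pseudocount of 0.1, 0 with a pseudocount of 10 and 3 at 2-fold, with 0 to 3 over pool pairs, and the count of 0 lower became 1 in the highest pool pair. For CB against CPCC the count of 1 lower became 3 under TMM, 2 under DESeq2 size factors and 4 at 2-fold, with 0 to 9 over pool pairs, and the count of 0 higher became 1 at 2-fold and 8 in the highest pool pair. In CPCC the 7 members with over 50% of counts in C1qb cells became 0 without pool 2, which held all of these cells, and 6 without the top cell of each member, as Cxcl16 fell to 48.7%. The 1 member with over 50% in Col1a2 cells became 0 with a class limit of 1000 CPM, where Cxcl12 had 31.3%, and 3 without pool 2. In CB the 5 members of the C1qb cells became 3 without the top cell of each member, as Ccl2 and Ccl7 lost their call, and the 5 of the Col1a2 cells became 3 without pool 1 (Cxcl1 at 45.3%, Cxcl16 at 48.6%) and 3 without pool 3 (Cxcl14 at 24.7%, Ackr4 at 13.9%, Cxcl16 at 48.3%, with Ccl2 added at 91.9%). Classes drawn from at least 4 markers of each list, in place of C1qb and Col1a2, were planned. Those drawn from at least 50% of each list were added after seeing the data. Of 356 recomputed percentages by class 334 stayed on the same side of 50%. Of 44 recomputed shares of cells 9 moved, 7 with a minimum of 5 counts and 2 with thinning, which left out 22, 18 and 22 cells of mESC, CPCC and CB. Thinned, the share with Ackr4 was 9.55% in CPCC instead of 17.1% and 3.11% in mESC instead of 6.51%. Thinning also left out cells and used rounded counts, and the part of depth alone was not tested. Of 12 lists of similar genes 9 kept under 2 of their 3 genes with Pearson's r. No paired analysis was possible because each group has 1 sample. The cause was not tested for the other changes.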
